A study of Mus musculus with 12 samples.

Results

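Solute carriers are the largest group of membrane transporters, and the genes described here are the 149 of them with appreciable RNA in the mouse hippocampus. They were chosen by name and by level, as genes whose symbol is Slc followed by a digit and whose FPKM averaged at least 2 over a control and a restraint table. FPKM, the unit of both tables, count sequenced fragments relative to transcript length and to the table's total, and isoforms were summed per gene. The tables listed 374 such genes among 23953 genes in all. Of these, 221 lay below 2 FPKM, including 53 listed at 0 in both tables, and 4 (Slc1a2, Slc1a3, Slc2a1 and Slc17a6) were left out by name. The level that chose a gene is therefore not a finding. The DNA mark in the gene body is not part of this rule. Near the limit the difference between the tables could decide, as for Slc9a2 and Slc30a10, which were below 2 FPKM in control. The carriers were also chosen with earlier results of these data known. Just inside the limit stood Slc9a2 (mean 2.14 FPKM), Slc30a10 (2.25) and Slc7a2 (2.28), and just outside it Slc2a6 (1.996), Slc25a15 (1.97) and Slc25a35 (1.95).

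Solute carriers move ions, amino acids, sugars, vitamins, metals and transmitters across membranes, either down the solute's own gradient or coupled to the gradient of sodium, potassium, chloride or protons that ATP-driven pumps build. The first number in a symbol gives the family, whose members share sequence and often, but not always, substrates. In the hippocampus they load transmitters into synaptic vesicles, clear them from the cleft, set neuronal chloride and calcium, carry nutrients across the blood-brain barrier and pass ATP, phosphate and metabolites over the inner mitochondrial membrane. The DNA mark, 5-hydroxymethylcytosine (5hmC), is made by TET enzymes from methylated cytosine, and in brain it lies almost entirely where C is followed by G.

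Male C57BL/6 mice on a C57BL/6J background were either held in a 50 ml tube for 30 min and then left alone in a clean cage for 1 h (stress or restraint, 6 mice) or taken straight from the cage (control, 5 mice). Control mice were taken when restraint began, so their tissue was collected earlier in the day. Both groups were briefly anaesthetised with isoflurane, and the age is given as postnatal day 28 in the sample tags and as 7 weeks in the protocol. Whole hippocampus was punched out, and DNA and RNA came from the same pools of 2 mice, with 1 pool of a single mouse. For 5hmC there were 3 libraries of stress and 3 of control pools, with 1 peak list per library, and for RNA 3 libraries per group that were merged into 1 table of FPKM. RNA differences therefore have no replicates, no error and no test, and fewer cells of a type cannot be told apart from less RNA per cell.

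The peak lists were uneven, with 15195, 27797 and 31654 peaks in stress libraries 1, 2 and 3 and 17186, 27916 and 16327 in control libraries 1, 2 and 3. Uniquely mapped reads are given as about 25000000 to 35000000 per 5hmC library, with no number for a single library. Stress library 1 and control libraries 1 and 3 thus had the short lists, and a position without a listed peak can still carry 5hmC. Markers of hippocampal neurons were present in both RNA tables, with a summed 83.9 FPKM in control and 96.9 in restraint for 7 genes of dentate granule cells. The 12 choroid plexus markers were all lower in the restraint table (summed 239.8 against 67.0 FPKM), and so were 11 of 12 oligodendrocyte markers (1598 against 1398 FPKM). Of 12 astrocyte markers, 10 were higher (677.3 against 791.1 FPKM). Their part in the values of the carriers was not tested.

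Within the bodies of the carrier genes, few 5hmC regions lay near a start site. Only regions that overlapped a gene body were counted, so lying inside the gene was set by the count. Peaks wholly before a start were left out, such as that of Slc22a17 in stress libraries 2 and 3. The split into introns, exons and start sites was not computed for other genes. The 6 lists together held 495 separate regions in the bodies of 121 of the 149 genes, and 28 genes held none. Of these 495 regions 326 (65.9%) were intronic, 145 (29.3%) touched an exon and 24 (4.85%) lay within 1 kb of a start site. Their median length was 1162 bp. Most were seen once, since 292 (59%) had a peak in a single library, against 56.9% of all 74450 regions of the genome. Peaks were found more often in long genes, with a median body of 34 kb for the 121 genes and 11.8 kb for the 28 others. Across the 149 genes, body length and number of regions had a Spearman correlation of 0.71, and mean FPKM and mean coverage one of -0.02. These are descriptions across genes that share the same libraries.

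Around the start site the mark was sparse, and it was most frequent a few kilobases into the gene. From 250 bases before to 50 bases after the start, peaks lay over 0.0604% ± 0.0583 of positions in stress and 0.639% ± 0.675 in control libraries (mean ± SD over 3 libraries). These values rest on 0 to 3 carriers with a peak there in a given library. Other genes of at least 2 FPKM had 0.499% ± 0.188 in stress and 0.318% ± 0.124 in control libraries, the opposite order. From 1 to 3 kb into the gene the carriers had 8.24% ± 2.26 in stress and 5.36% ± 1.26 in control libraries. In the 9009 other genes of at least 2 FPKM, the same downstream window had 5.26% ± 1.63 and 3.71% ± 1.05. Carriers thus had the higher mean in both groups, in a window where 11.4% to 22.1% of them had a peak in a given library. Upstream, from 5 to 3 kb before the start, carriers had 2.19% ± 0.552 and 1.71% ± 0.954, close to the 2.13% ± 0.734 and 1.30% ± 0.608 of other genes. In genes of at least 5 kb, peaks covered 4.74% ± 1.68 of the stretch from 5 to 50% of the body in stress libraries and 3.16% ± 0.428 in control libraries, against 3.50% ± 1.2 and 2.37% ± 0.854 in other genes. The last 50% of the body had 2.69% ± 1.43 and 1.59% ± 0.411 in carriers and 3.11% ± 1.22 and 1.82% ± 0.764 in other genes, so there the other genes had the higher means. These comparisons with other genes were not tested.

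**Figure D1:**
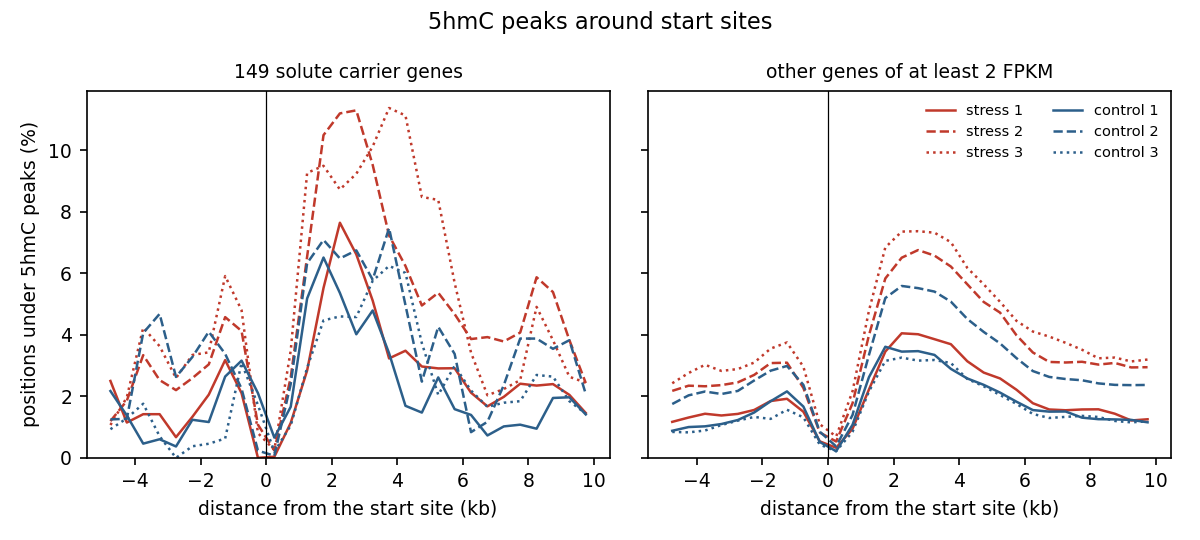
Percentage of positions under 5hmC peaks (y axis) by distance from the start site in kb (x axis), for the 149 carrier genes on the left and the 9009 other genes of at least 2 FPKM on the right, with 1 line per library (stress red, control blue; solid, dashed and dotted for libraries 1, 2 and 3). All lines dip at the start site and are highest between 1 and 5 kb into the gene, and in the right panel the 3 longer lists lie highest.

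A peak over the start window itself was found in 6 of 149 carriers (4.03%), each in 1 or 2 libraries, against 214 of 9009 other genes (2.38%). The 6 were Slc16a7 and Slc25a3 (control 1), Slc33a1 (control 1 and 3), Slc6a11 (stress 2), Slc22a17 (stress 2 and 3) and Slc6a7 (stress 2 and control 3). None had a start-site peak in all libraries of a group.

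Promoters of 5 carriers are printed to show the sequence of this sparse stretch in the genes whose bodies the later results turn on, and in the most abundant synaptic carrier. Each run is the 250 bases before the start in RefSeq, build GRCm38.p6, 5′ to 3′ on the gene's strand, with every CG, the site that can carry 5hmC, in capitals. Slc50a1 lies at chr3:89270571-89270820 (minus strand), Slc25a38 at chr9:120110132-120110381 (plus), Slc3a2 at chr19:8713898-8714147 (minus), Slc30a1 at chr1:191906531-191906780 (plus) and Slc17a7 at chr7:45163671-45163920 (plus). No library had a peak over the start window of any of the 5.
Slc50a1: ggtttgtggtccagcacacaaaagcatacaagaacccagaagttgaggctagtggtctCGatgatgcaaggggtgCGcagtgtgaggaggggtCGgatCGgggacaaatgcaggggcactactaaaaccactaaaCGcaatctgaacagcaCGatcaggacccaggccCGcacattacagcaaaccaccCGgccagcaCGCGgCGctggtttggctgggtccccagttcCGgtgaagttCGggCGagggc
Slc25a38: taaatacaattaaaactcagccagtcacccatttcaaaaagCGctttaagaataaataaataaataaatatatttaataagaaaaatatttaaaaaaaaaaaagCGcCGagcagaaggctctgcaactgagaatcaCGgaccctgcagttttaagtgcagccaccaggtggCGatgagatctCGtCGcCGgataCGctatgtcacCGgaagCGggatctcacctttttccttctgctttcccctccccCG
Slc3a2: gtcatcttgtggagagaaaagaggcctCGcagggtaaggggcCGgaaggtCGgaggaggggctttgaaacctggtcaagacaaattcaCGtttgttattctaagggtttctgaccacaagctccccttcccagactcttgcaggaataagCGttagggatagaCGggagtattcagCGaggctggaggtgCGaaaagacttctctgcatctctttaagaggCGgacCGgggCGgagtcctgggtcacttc
Slc30a1: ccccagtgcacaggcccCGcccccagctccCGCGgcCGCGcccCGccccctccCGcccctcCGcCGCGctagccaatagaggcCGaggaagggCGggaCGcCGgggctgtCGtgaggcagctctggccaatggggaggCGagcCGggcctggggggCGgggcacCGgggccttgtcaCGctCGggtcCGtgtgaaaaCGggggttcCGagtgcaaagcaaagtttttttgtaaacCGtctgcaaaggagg
Slc17a7: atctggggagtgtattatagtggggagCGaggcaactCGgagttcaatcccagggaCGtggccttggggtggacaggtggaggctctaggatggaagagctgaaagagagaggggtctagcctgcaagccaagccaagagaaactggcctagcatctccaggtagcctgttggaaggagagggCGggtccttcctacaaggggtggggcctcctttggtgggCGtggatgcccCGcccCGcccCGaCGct

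All 5 stretches hold CG sites, from 9 in Slc17a7 and 11 in Slc3a2 over 12 in Slc25a38 and 14 in Slc50a1 to 25 in Slc30a1. RefSeq promoters were matched for 115 of the 149 carriers (149 promoters), with a median of 13 CG per 250 bases. The median was 17 in 8900 promoters of other genes of at least 2 FPKM and 6 in all 32851 promoters. At least 10 CG were present in 69.1% of carrier promoters, 74.1% of the other expressed promoters and 37.8% of all. Short motifs were searched on both strands, and GGGCGG, the GC box of Sp factors, was found in 61.7% of carrier, 58.6% of other expressed and 32.7% of all promoters. CACGTG, an E-box, was in 18 carrier promoters (12.1%, against 8.42% and 6.02%). TGACGTCA, the cyclic AMP response element, was in 2 (1.34%, against 2.78% and 1.55%), those of Slc25a25 and Slc25a36. TGATGNAA, the core of the amino acid response element, was in 3 (2.01%, against 1.9% and 3.45%), those of Slc50a1, Slc7a11 and Slc9a9. None of these motifs contains another, and a CG inside a motif also counts among the CG sites.

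The RNA levels spanned a wide range, from 2.14 to 219.5 FPKM as the mean of the tables. The median was 5.52 FPKM, against 6.97 for all 9158 genes of at least 2 FPKM. Only 19 carriers reached 20 FPKM and 61 were below 5. The order at the top, which FPKM allow to be read across genes because they are per kilobase, was led by the mitochondrial carriers. Slc25a4, the adenine nucleotide translocase of heart, muscle and brain, had 217 FPKM in control and 222 in restraint. It was followed by Slc17a7, the vesicular glutamate transporter VGLUT1 of hippocampal principal neurons, with 118 and 123 FPKM. Slc25a3, the mitochondrial phosphate carrier, had 81.0 and 91.0 FPKM, and Slc25a5, the second adenine nucleotide translocase, 80.5 and 91.1. Slc25a4 and Slc25a5 are close paralogs and reads may have been split between them. In all, 13 carriers have an exon that overlaps an exon of another gene, on either strand. A deposited FPKM lay outside its own deposited interval in 35 carriers, so those intervals were not used as errors.

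**Figure D2:**
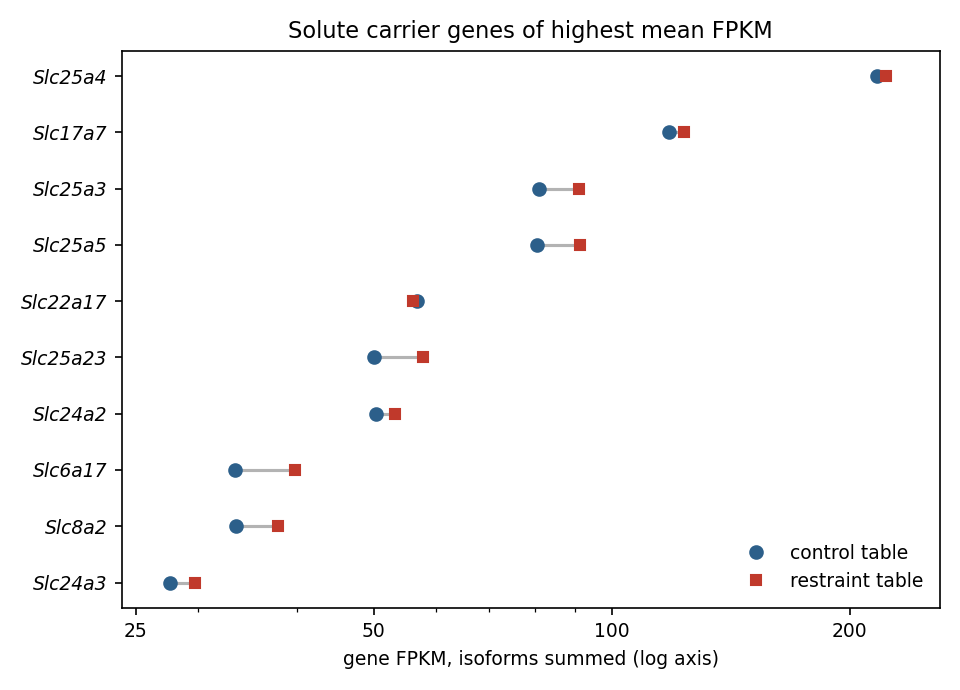
Gene FPKM on a log axis (x) for the 10 carriers of highest mean FPKM (y), with the control table as blue circles and the restraint table as red squares. Slc25a4 and Slc17a7 stand apart on the right above 100 FPKM, and the restraint value is the higher in all but Slc22a17.

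Between the tables, the carriers differed little, and their median lay close to that of all genes. The difference is given as log2((restraint + 1)/(control + 1)), which understates the difference of low genes. No carrier was 1.5-fold higher in restraint (0 of 149, against 1.08% of the 9158 genes) and none was 1.5-fold lower (0 of 149, against 0.721%). At a smaller step, 7 were at least 25% higher on this scale (4.7%, against 7.32%) and 1 was at least 20% lower (0.671%, against 2.71%). The median difference was 0.11 against 0.09 for all 9158 genes, and 110 carriers (73.8%) were above 0, against 71.8%. Relative to the median of all genes 81 of 149 (54.4%) were above. With a pseudocount of 0.1, Slc9a2 passed 1.5-fold upward (0.76) and Slc50a1 downward (-0.64), against 2.17% and 1.17% of all genes. Slc9a2 was below 2 FPKM in control and entered the carriers through its restraint value. With values centred on the median of all genes, Slc50a1 was the 1 carrier past 1.5-fold downward (-0.61).

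**Figure D3:**
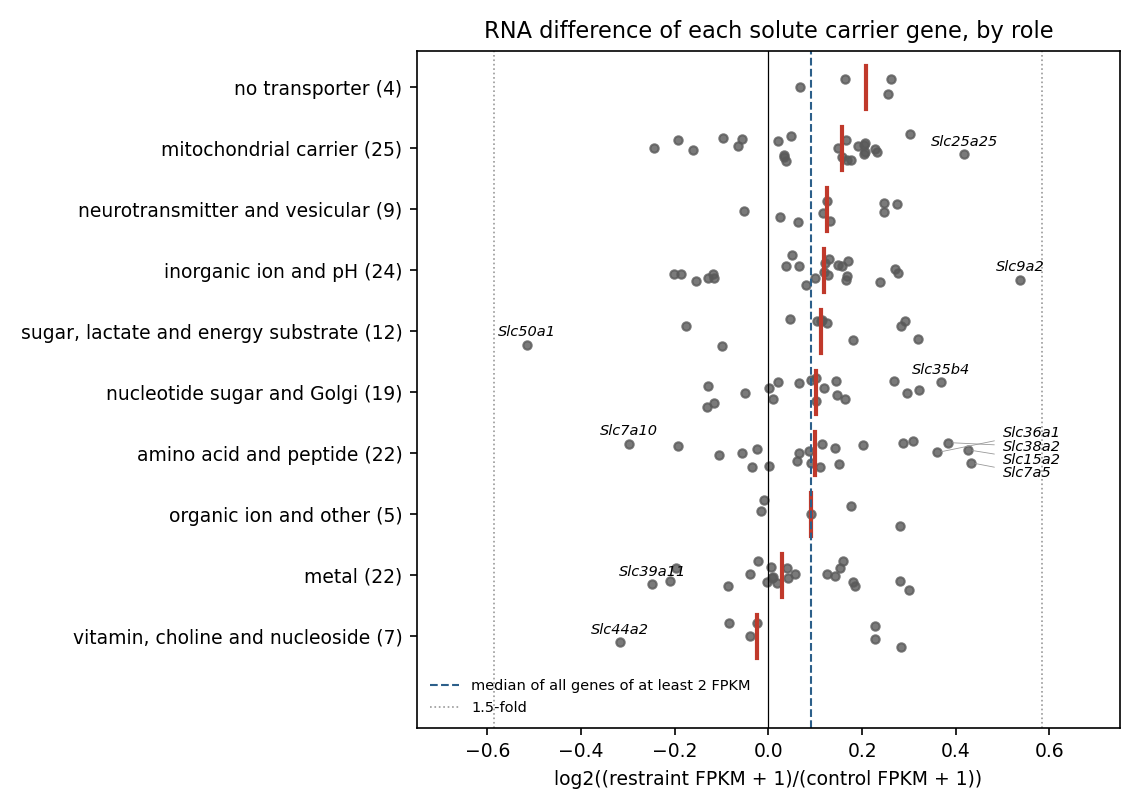
RNA difference of each of the 149 carriers (grey points, x axis, log2 of the ratio with 1 added to each FPKM) by role (y axis, number of genes in brackets), with the median of each role as a red bar, the median of all genes of at least 2 FPKM as a blue dashed line and 1.5-fold as dotted lines. All points lie between -0.52 (Slc50a1) and 0.54 (Slc9a2), inside the 1.5-fold lines.

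Among the 22 carriers of amino acids and peptides, 16 were higher and 6 lower in restraint, with a median of 0.10. Of the 22, 4 were at least 25% higher, a step passed by 7.32% of all 9158 genes and 4.7% of all carriers. The median was close to that of all carriers (0.11), and the count of 4 was not tested. Slc7a5, the light chain LAT1 that carries large neutral amino acids such as leucine across the blood-brain barrier, had 6.20 FPKM in control and 8.72 in restraint (0.43). Slc3a2, the heavy chain that brings LAT1 to the membrane, had 21.6 and 26.6 FPKM (0.29). Slc38a2, the sodium-coupled SNAT2 that responds to amino acid shortage and to hypertonicity, had 7.54 and 10.1 FPKM (0.38). Slc15a2, the proton-coupled peptide carrier PEPT2 of astrocytes and choroid plexus, had 2.34 and 3.49 FPKM (0.43), and Slc36a1, a lysosomal proton-coupled carrier of small amino acids, had 2.37 and 3.33 (0.36). Slc15a4, a lysosomal carrier of histidine and peptides, had 3.03 and 3.99 FPKM (0.31). Lower values were found for Slc7a10, the asc-1 exchanger of serine and glycine (3.81 and 2.92 FPKM, -0.30), and for Slc6a6, the taurine carrier (12.5 and 10.8 FPKM, -0.19). An exon of Slc7a10 overlaps an exon of Lrp3. The 3 most abundant of this role were Slc3a2, Slc7a14 (18.5 and 21.4 FPKM) and Slc38a1 (16.5 and 17.9 FPKM), a glutamine carrier of neurons.

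The 9 transmitter and vesicular carriers had a median of 0.12, with 8 above 0. After Slc17a7, the highest was Slc6a17, which loads neutral amino acids into synaptic vesicles, with 33.4 FPKM in control and 39.8 in restraint (0.25). The astrocytic GABA carrier Slc6a11 (GAT3) had 21.8 and 23.8 FPKM (0.12). Slc32a1, which fills inhibitory vesicles with GABA and glycine, had 9.70 and 11.7 FPKM (0.25). Slc6a7, the proline carrier of glutamatergic terminals, had 7.12 and 8.83 FPKM (0.27), and Slc1a1, the neuronal glutamate carrier EAAC1, 13.9 and 15.2 FPKM (0.12). The 1 gene below 0 was Slc6a9, the glycine carrier GlyT1 of glia, with 4.84 and 4.63 FPKM (-0.05).

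Of 24 carriers of inorganic ions and of acid and base, 18 were above 0, with a median of 0.12. The most abundant were the potassium-dependent sodium-calcium exchangers Slc24a2 (50.3 and 53.3 FPKM) and Slc24a3 (27.6 and 29.7 FPKM) and the sodium-calcium exchanger Slc8a2 (33.5 and 37.8 FPKM). Slc9a2, a sodium-proton exchanger, had the highest difference of all carriers, 0.54, from 1.56 and 2.71 FPKM, values at the bottom of the range. It passed the limit of 2 FPKM only through the restraint table, so the limit bears on this rank. The chloride extruder Slc12a5 (KCC2), which makes GABA inhibitory in mature neurons, had 19 and 21.5 FPKM (0.17), and the chloride importer Slc12a2 (NKCC1) 10.8 and 9.58 FPKM (-0.15). Slc12a4 (KCC1; 2.60 and 2.13 FPKM, -0.20) and Slc4a2, a chloride-bicarbonate exchanger (3.22 and 2.71 FPKM, -0.19), were the lowest of this role. Slc4a10 (24.8 and 25.5 FPKM), a neuronal sodium-bicarbonate carrier, differed little.

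The 25 mitochondrial carriers of the Slc25 family had a median of 0.16 and 19 were above 0. Slc25a25, a calcium-regulated exchanger of ATP-magnesium for phosphate, had 5.27 FPKM in control and 7.38 in restraint (0.42). It was the only one at least 25% higher, a step passed by 7.32% of all 9158 genes. An exon of Slc25a25 overlaps an exon of Naif1. Its paralog Slc25a23 had 50.0 and 57.7 FPKM (0.20), and Slc25a27, an uncoupling-protein relative, 3.22 and 4.21 FPKM (0.30). At the other end stood Slc25a39, required for mitochondrial glutathione import (8.17 and 6.75 FPKM, -0.24), Slc25a28, the iron carrier mitoferrin 2 (3.02 and 2.52 FPKM, -0.19), and Slc25a16 (7.70 and 6.78 FPKM, -0.16). Slc25a11, the oxoglutarate-malate exchanger, had 24.7 and 23.1 FPKM (-0.10).

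Carriers of sugars, lactate and other fuels numbered 12, with a median of 0.11 and 9 above 0. They held the lowest difference of all carriers, that of Slc50a1, a glucose-permeable protein of the SWEET family, with 4.63 FPKM in control and 2.94 in restraint (-0.52). It was the only carrier at least 20% lower, and its deposited FPKM is among those outside the deposited interval. The neuronal glucose carrier Slc2a3 (GLUT3) had 14.3 and 17.6 FPKM (0.28), the creatine carrier Slc6a8 13.7 and 16.9 (0.29) and the sugar-phosphate carrier relative Slc37a3 5.70 and 7.36 (0.32). The lactate carriers were on the other side of 0, with 6.12 and 5.64 FPKM for Slc16a1 (MCT1, -0.10) and 5.63 and 4.87 FPKM for Slc16a7 (MCT2, the neuronal form, -0.18). Slc2a13, the proton-coupled myo-inositol carrier, had 14.6 and 15.9 FPKM (0.11).

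The 22 metal carriers had a median of 0.03, below that of all genes, with 15 above 0 and only 8 above the median of all genes. None was 25% higher or 20% lower, against 7.32% and 2.71% of all 9158 genes. Slc39a10 (a zinc importer, 19.3 and 19.4 FPKM), Slc30a9 (17.2 and 17.3 FPKM) and Slc48a1 (a heme carrier, 17.7 and 16.6 FPKM) were the most abundant. Slc30a3, the vesicular zinc carrier ZnT3 of mossy fibres, had 13.2 and 14.8 FPKM (0.15), and Slc30a1, which exports zinc from the cell, 7.6 and 7.94 (0.06). Slc30a10, a manganese exporter, had 1.91 and 2.59 FPKM (0.30) and passed the limit of 2 FPKM only through the restraint table. Slc39a11 (2.84 and 2.23 FPKM, -0.25), Slc31a1, the copper importer CTR1 (3.23 and 2.65 FPKM, -0.21), and Slc39a13 (2.87 and 2.38 FPKM, -0.20) had the lowest differences.

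The 19 carriers of nucleotide sugars and of the Golgi had a median of 0.10, with 15 above 0. Slc35b4, which brings UDP-sugars into the secretory pathway, was the 1 at least 25% higher (5.86 and 7.86 FPKM, 0.37), against 7.32% of all 9158 genes. It was followed by Slc35g2 (6.05 and 7.82 FPKM, 0.32) and Slc35f3 (10.1 and 12.7 FPKM, 0.30). Of the 7 carriers of vitamins, choline and nucleosides, 3 were above 0 and the median was -0.02. Slc44a2, a choline-carrier-like protein, had 3.88 and 2.92 FPKM (-0.32). Its relative Slc44a1 had 17.5 and 16.4 FPKM (-0.09), the vitamin C carrier Slc23a2 14.7 and 14.3 (-0.04) and Slc29a4, a monoamine carrier, 2.53 and 3.29 (0.28). Among the 5 remaining organic ion carriers, Slc22a17, a receptor for lipocalin 2, had 56.7 and 56.0 FPKM. The 4 genes that carry an Slc symbol without being transporters (the scaffolds Slc9a3r1 and Slc9a3r2, Slc4a1ap and Slc7a6os) were all above 0, with Slc9a3r1 at 9.05 and 11 FPKM (0.26).

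The carriers were also read by the cell type in which each is best known, beside the 71.8% of all 9158 genes that were above 0. All 15 listed neuronal carriers were above 0, with a median of 0.13 (0.04 to 0.28), and 11 of them above the median of all genes. That list was not complete, since it left out Slc16a7 (-0.18) and Slc38a1 (0.11), both described above as neuronal. Of 12 astrocytic carriers 9 were above 0 (median 0.10) and 6 above the median of all genes. Of 5 endothelial ones 4 were above 0 (median 0.15, from Slc16a1 at -0.10 to Slc7a5 at 0.43) and 3 above the median of all genes. The astrocytic count includes Slc9a3r1 (0.26) and the endothelial count Slc9a3r2 (0.07), which are scaffolds and not transporters. All 4 oligodendrocyte carriers, Slc44a1, Slc12a2, Slc6a9 and Slc48a1, were below 0 (median -0.09), and Slc6a9 is also counted with the astrocytes. Of 3 carriers listed for choroid plexus and meninges, Slc4a2 and Slc31a1 were below 0 and Slc29a4 above. Slc15a2 (0.43), described above as a carrier of astrocytes and choroid plexus, was counted with the astrocytes only. Differences between these small groups were not tested. Of the marker lists, 6 of 10 endothelial genes were higher (summed 42.0 and 49.7 FPKM, with Cldn5 at 9.80 and 5.77), 4 of 7 of excitatory neurons (805.6 and 897.8 FPKM) and 7 of 9 of inhibitory neurons (130.3 and 130.7 FPKM). Microglial markers were higher in 8 of 10 (64.1 and 75.7 FPKM), thalamic markers in 7 of 9 (42.7 and 54.5 FPKM) and dentate granule cell markers in 6 of 7, while 5 of 6 ependymal markers were lower (10.6 and 6.17 FPKM) and 4 of 8 meningeal ones (18.5 and 19 FPKM). Among single markers, Ttr of the choroid plexus had 217 FPKM in control and 59.5 in restraint, Mbp of oligodendrocytes 798.6 and 685.9, and Aqp4 of astrocytes 19.2 and 21.4. No marker list had a gene at 0 in both tables. Whether the share of each cell type in the punches differed was not tested.

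The proteins that carriers depend on were read in the same way. Of 9 sodium pump genes, none was 25% higher or 20% lower (7.32% and 2.71% of all 9158 genes) and the median was 0.08. Of 16 genes of the vacuolar proton pump, which energises vesicular and lysosomal carriers, 1 was 1.5-fold higher, Atp6v0c (31.1 and 52.7 FPKM, 0.74). That step was passed by 1.08% of all 9158 genes, and the median of the 16 was 0.03. Among 11 expressed chaperones and kinases of carriers, Sgk1, a glucocorticoid-induced kinase that raises the surface level of several carriers, had 7.34 and 21.9 FPKM (1.46). The lactate carrier chaperones Bsg and Emb had 66.7 and 56.8 FPKM (-0.23) and 3.81 and 2.77 FPKM (-0.35). Of 14 expressed genes of other carrier families, none was past 1.5-fold, against 1.08% higher and 0.721% lower of all 9158 genes. The subunits of the mitochondrial pyruvate carrier lay on opposite sides, Mpc1 at 16.4 and 12.8 FPKM (-0.33) and Mpc2 at 40.9 and 48.3 FPKM (0.23).

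Of 40 carriers with several listed isoforms, 19 (47.5%) had an isoform whose share of the gene's FPKM differed by at least 10 percentage points between the tables. The same held for 43.7% of all 2750 genes of at least 2 FPKM with several isoforms, so the share of carriers was near that of all genes. In Slc25a25 the isoform NM_001164358 took 53.2% in control and 19.4% in restraint, and NM_001290558 took 42.6% and 66.4%. In Slc8a1, a sodium-calcium exchanger, NM_001112798 took 42.5% and 61.8%. In Slc12a4 NM_009195 took 100.0% and 32.1%, with the remainder assigned to the non-coding NR_045594. In Slc25a44 NM_001281795 was listed at 0 in control and at 1.48 FPKM in restraint. With the most abundant isoform only, Slc25a14 and Slc25a25 passed 1.5-fold upward and Slc14a1 and Slc25a44 downward (of 146 carriers, 2.86% and 1.94% of all genes). Each share is an estimate of 1 merged table, so its error is unknown.

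5hmC coverage, the percentage of a gene body under peaks, was on average higher in stress. It averaged 2.69%, 5.26% and 5.83% over the 149 carriers in stress libraries 1, 2 and 3, and 1.88%, 3.12% and 2.20% in control libraries 1, 2 and 3. The groups overlapped, since stress library 1 lay below control library 2 (4.6% ± 1.67 and 2.40% ± 0.645, SD, n = 3 each). All 9158 genes of at least 2 FPKM had 3.53% ± 1.27 and 2.14% ± 0.823. Carriers with a peak numbered 62, 90 and 92 in stress and 66, 78 and 69 in control libraries. Of the 121 carriers with a peak, 83 (68.6%) had the higher mean in stress, against 67.6% of all expressed genes with a peak.

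In 8 of the 121 carriers (6.61%) every stress library had more coverage than every control library, against 7.49% of all 12602 genes with a peak and 8.03% of those of at least 2 FPKM. In 0 of 121 it was the reverse, against 1.04%. The share of carriers was thus near that of all genes. For each gene the exact two-sided permutation p was 0.1, the smallest that 3 against 3 libraries allow, and it was 1 after Benjamini-Hochberg adjustment over all genes with a peak. Groups of 3 libraries without overlap always give this p of 0.1, whether the libraries of a group lie close together or far apart. The p therefore follows from how the 8 were chosen and adds nothing to that choice. The number of carriers higher in stress without overlap was 38 without stress library 1, 13 without control library 1 and 21 without control library 2. The reverse count was 2 to 5 when any 1 library other than stress library 1 was left out. Leaving out a library eases the criterion for every gene, and the share of all genes was not computed for these counts. They therefore say nothing particular to the carriers. After division by the coverage of all gene bodies in the same library, 4 carriers were higher in stress (3.31% of 121, against 4.85% of all genes with a peak) and 7 lower (5.79%, against 3.9%), so that lower calls outnumbered higher ones. The 4 were Slc50a1, Slc25a38, Slc3a2 and Slc39a10, and the 7 were Slc16a1, Slc20a1, Slc25a36, Slc35f1, Slc43a2, Slc4a10 and Slc9a9. Of the 4, Slc50a1, Slc25a38 and Slc3a2 had 0% in every control library, so division could not change their call.

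Slc50a1 (chr3:89072168-89074492 in mm9, minus strand) had the largest difference of the 8. Peaks covered 30.7%, 41% and 54.1% of its 2.33 kb body in stress libraries 1, 2 and 3 and 0% in each control library. The groups did not overlap (41.9% ± 11.7 against 0%, exact permutation p = 0.1, adjusted 1). All of it came from 1 region, chr3:89072188-89073445, which touches exons and has its centre 1675 bp into the gene. Within their lists, its peaks scored above 30.4%, 82.9% and 94.4% of all peaks. This is also the carrier with the lowest RNA difference, and its promoter, printed above, holds 14 CG sites. The separation held with lists trimmed by score to equal length, but among the higher-scoring 50% of each list stress library 1 had no peak there. Division by overall coverage could not change it, since control libraries at 0% stay at 0%.

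Slc25a38, the mitochondrial glycine carrier needed for heme synthesis, had 6.31%, 6.10% and 16.1% in stress libraries and 0% in each control library (9.50% ± 5.70 against 0%). Its 1 region, chr9:120021439-120023677, is intronic with its centre 3041 bp into the gene, and its peaks scored above 36.8%, 40.4% and 78.3% of their lists. With lists of equal length, stress library 2 lost its peak. Slc3a2 had 7.48%, 5.27% and 4.83% in stress and 0% in each control library (5.86% ± 1.42 against 0%). Here the 3 libraries had their peaks at 3 different places, chr19:8781793-8783026, chr19:8783298-8784166 and chr19:8791300-8792096, so no position was shared, and with lists of equal length only stress library 1 had one. Slc25a44, the mitochondrial carrier of branched-chain amino acids, had 12.3%, 15.9% and 12.5% in stress and 0%, 0% and 10.3% in control libraries, so control library 3 also had this peak.

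In the other 4 genes the separation was narrow. Slc25a51, the mitochondrial NAD carrier, had 17.3%, 16.7% and 15.1% in stress and 14.9%, 14.9% and 8.66% in control libraries. All 6 libraries had its region (chr4:45414979-45417213) and only its covered length differed. Slc9a3r1, a scaffold under sodium-proton exchangers, had 9.97%, 10.0% and 9.12% in stress and 4.92%, 7.61% and 0% in control libraries. Slc44a1 had 2.85%, 3.56% and 3.05% in stress and 0.403%, 2.35% and 1.87% in control libraries. Slc24a3, a gene of 399 kb with 15 scattered intronic regions, had 0.771%, 1.31% and 1.47% in stress and 0.269%, 0.177% and 0.648% in control libraries. Slc25a51, Slc44a1, Slc50a1 and Slc9a3r1 kept groups without overlap in 4 of 5 other settings, Slc25a44 in 3, and Slc24a3, Slc25a38 and Slc3a2 in 2. Division by overall coverage was the setting that Slc25a51, Slc44a1 and Slc9a3r1 failed. Slc50a1, Slc25a38 and Slc3a2 could not fail it, because their control libraries were all at 0%, which division leaves unchanged. Several settings trim the same lists, so the tally does not rank the genes.

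**Figure D4:**
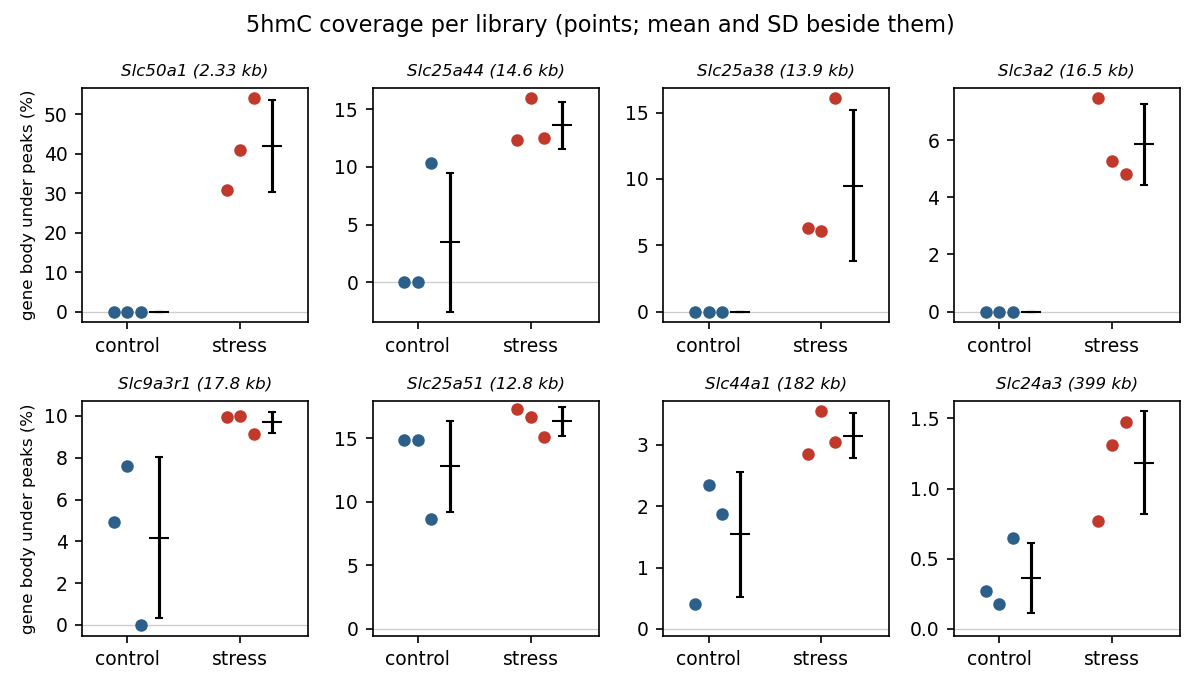
Percentage of the gene body under 5hmC peaks (y axis, a different range in each panel) in the 3 control (blue) and 3 stress (red) libraries for the 8 carriers whose groups do not overlap, in the order of their replicate numbers, with mean and SD as black bars and the body length in brackets. Control libraries lie at 0% in Slc50a1, Slc25a38 and Slc3a2, and close under the stress libraries in Slc25a51.

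Regions with a peak in all 3 stress libraries and no control library numbered 8 in carrier bodies (1.62% of 495, against 1.14% of all regions and 1.31% of regions in bodies of genes of at least 2 FPKM). They lay in 8 genes (5.37% of 149, against 4.13% of the 9158 genes). Besides those of Slc50a1 and Slc25a38, 3 touched exons, in Slc6a17, Slc31a1 and Slc9a9. In Slc6a17 it was chr3:107279559-107280815, 40749 bp into the gene, and in Slc31a1 it was chr4:62052267-62053479, over the gene's end, where the peak of stress library 2 scored above 98.5% of its list. The other 3 were intronic, in Slc44a1 (chr4:53522602-53523648), Slc24a4 (chr12:103416862-103419219) and Slc39a11 (chr11:113184105-113185784). Slc24a4, a potassium-dependent sodium-calcium exchanger, had 4.25 and 5.37 FPKM (0.28), while Slc39a11 and Slc31a1 were among the lowest RNA differences. The count was 25 without stress library 1, 13 without stress library 3 and 15 without control library 2. Fewer libraries ease the criterion for every region. It was 3 with lists trimmed by score to equal length and 1 in the higher-scoring 50% of each list. Shares of all regions were not computed for these counts.

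The reverse, a peak in all 3 control libraries and no stress library, was found in 2 regions (0.404% of 495, against 0.371% of all regions and 0.414% in genes of at least 2 FPKM). They lay in introns of 2 genes (1.34% of 149, against 1.28%). One was in Slc35f1 (chr10:52475613-52476797), which had 0%, 0.363% and 0.210% of its body covered in stress and 0.848%, 0.615% and 0.213% in control libraries. The count was 8 without control library 1 and also without control library 3, steps that ease the criterion for every region. The share of all regions was not computed there.

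Slc9a9, the endosomal sodium-proton exchanger NHE9, held a region of each kind in its 561 kb body. The stress region, chr9:94839408-94840840, touches an exon 269813 bp into the gene, and the control region, chr9:94882326-94883329, lies in an intron 312517 bp into it. The gene held 27 regions in all, and most were seen in only some libraries of either group. Coverage of the whole body overlapped between the groups, with 0.507%, 2.31% and 1.92% in stress and 1.43%, 2.20% and 1.40% in control libraries (1.58% ± 0.947 against 1.67% ± 0.454). The peaks of the stress region scored above 3.44%, 11.5% and 70.7% of their lists, and those of the control region above 40.8%, 28.0% and 38.3%. Its RNA was 2.46 FPKM in control and 2.16 in restraint (-0.13).

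**Figure D5:**
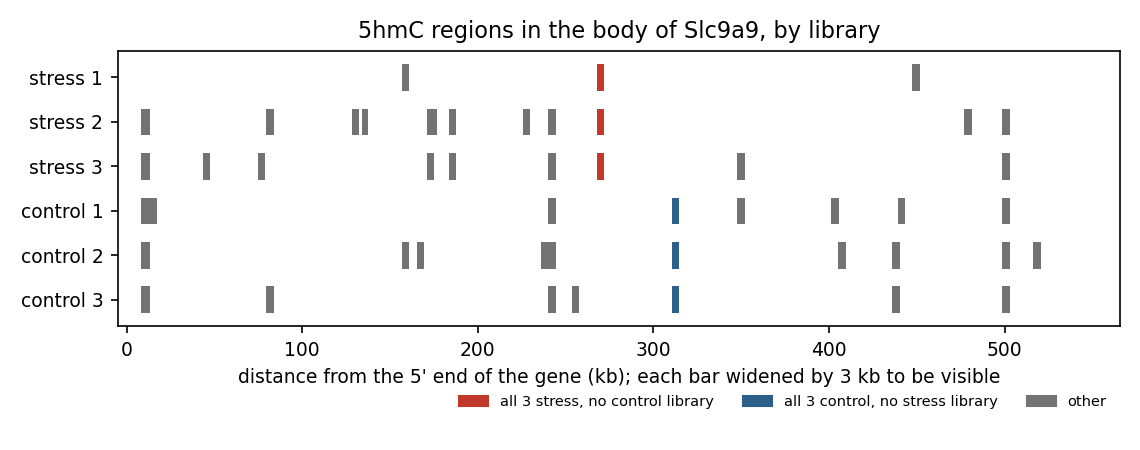
Position of the 27 regions of Slc9a9 along the gene (x axis, kb from its 5′ end) in the 6 libraries (y axis), with a bar wherever the library has a peak in the region. The red region is present in the 3 stress libraries only and the blue one in the 3 control libraries only, and 16 of the 25 grey ones have a peak in a single library.

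Regions with a peak in all 6 libraries numbered 11 (2.22% of 495, against 1.63% of all regions, 1.8% of regions in gene bodies and 2.03% of those in genes of at least 2 FPKM), in 10 carriers (6.71% of 149, against 6.14%). Slc30a1, the zinc exporter, had one of similar length in all of them. Peaks covered 22.1%, 24.5% and 27.9% of its 6.47 kb body in stress and 25.2%, 24.7% and 20.1% in control libraries, so the groups overlapped (24.8% ± 2.91 and 23.3% ± 2.79). The region (chr1:193731976-193733938) touches an exon 2297 bp behind the CG-rich start printed above, and its peaks scored above 92.2% to 99.3% of all peaks in each library. Slc44a5 held 2 such regions, and Slc17a5, Slc25a12, Slc25a26, Slc25a33, Slc25a46, Slc25a51, Slc2a13 and Slc4a4 held 1 each. The count was 21 without stress library 1 and 17 without control library 3, where fewer libraries had to hold a peak. The share of all regions was not computed in these 2 settings.

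The carriers of highest or most different RNA varied in 5hmC. Slc17a7 and Slc38a2 had no peak in any library. Slc25a4 had its 1 peak in stress libraries 2 and 3 (17.5% and 17%) and in no other library. Slc7a5 had 4.15%, 14% and 19.6% in stress and 0%, 13.2% and 9.31% in control libraries, and Slc9a2 0%, 2.39% and 0% against 0%, 2.08% and 2.63%. Slc25a25 had 0%, 2.86% and 4.64% against 4.37%, 2.38% and 0%. In all 3 the groups overlapped. Across the 121 carriers with a peak, the RNA difference and the coverage difference had a Spearman correlation of -0.04, a description over genes that share the same 6 libraries and 2 tables.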

How the data were processed

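For 5hmC, the authors deposited 1 list of peaks per library with a score per peak, and the names in the lists are those MACS gives. Bowtie 0.12.9, edgeR and the build mm9 are named for these libraries, per the submitters' processing notes. For RNA, the authors deposited 1 Cufflinks table per group, with FPKM of RefSeq transcripts inside other attribute text. The same notes name TopHat 1.0.12, Cufflinks 2.1.1 and Cuffdiff 2.1.1 for RNA. The sources used here give no depth for a single library, and no list held a deposited score below 50. Titles and treatment tags gave the groups.

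Peaks of the autosomes (1 to 19) and the sex chromosomes were merged into regions where they overlapped by at least 1 bp. The RNA tables (mm9) gave gene bodies, exons and start sites, and RefSeq gave promoter sequences (GRCm38.p6). Regions within 1 kb of a start site were called promoter, then exon, then intron. Isoform FPKM were summed and compared with a pseudocount of 1. Coverage per gene was tested by exact permutation, two-sided, with 20 ways to assign 6 libraries, and adjusted over all genes with a peak. Scores were used only within a list. Python 3.11.15, numpy 2.4.6, pandas 2.3.3 and scipy 1.17.1 were used, and the steps were tested on simulated data.

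The carriers, roles and gene lists were chosen with earlier results of these data known. Genes were named by rule: the 15 of highest mean FPKM, the 12 highest and 12 lowest RNA differences, carriers with a region of 1 group or of all libraries, the 5 largest coverage differences in each direction, 3 on each side of the limit, the 3 highest of each role, and carriers of the cell type lists. Slc9a2, Slc38a2, Slc7a5 and Slc25a25 in the last comparison, genes named for an isoform or a setting, and genes of partner and marker lists outside the rule were chosen after their values were seen. The same covered length per list was added as an alternative after seeing the data. Some genes under this rule are not reported here.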

Additional observations from a re-analysis of the deposited data

How the results depend on the processing

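The median RNA difference was 0.0185 after centring on all genes and 0 over all 370 carrier genes without a filter, where 1 low gene (Slc10a3-ubl4, -0.65) was past 1.5-fold downward. Counts of carriers past 1.5-fold, 0 in each direction, were 1 higher and 1 lower with a pseudocount of 0.1, 2 and 2 with the most abundant isoform, 0 and 1 after centring, and 7 and 1 at 25% higher or 20% lower. Carriers with higher coverage in stress without overlap numbered 13 with 5 kb added on each side, a step that widens every gene, and 4 after division by overall coverage. They numbered 9 with the same number of peaks (6.53% of all genes), 7 in the higher-scoring 50% and 7 with the same covered length (5.08% of all genes). Leaving out each library, a step that eases the criterion by removing samples, gave 8 to 38 such carriers. Those with lower coverage numbered 3 with the same number of peaks (2.11% of all genes), 1 in the higher-scoring 50%, 7 after division, 4 with the same covered length (3.11% of all genes), and 0 to 5 without each library. Stress-only regions numbered 3, 1 and 3 with the same number of peaks, the higher-scoring 50% and the same covered length, and 9 to 25 without each library. Control-only regions numbered 0 in the higher-scoring 50% and 1 with the same covered length, and 2 to 8 without each library. Regions in all libraries numbered 6, 4 and 4 in those 3 settings, and 11 to 21 without each library. The labels' replicate numbers did not pair the samples (correlations of same-numbered deviations 0.12, 0.01 and -0.04). With the replicate number as a block 24 carriers were higher and 2 lower in all 3 pairs. Shares of all genes were not computed for this setting, for those without a library, with 5 kb added or for the higher-scoring 50%. Shares of all regions were not computed for any of these alternatives. Counts without such a share say nothing particular to the carriers. After division by overall coverage the balance of coverage calls turned, from 8 higher and 0 lower to 4 higher and 7 lower. Higher calls still outnumbered lower ones with the same number of peaks, in the higher-scoring 50% and with the same covered length. With the most abundant isoform only, Slc25a44 turned from 0.23 to -0.79. The causes of these shifts were not tested, except that fewer peaks or libraries change what can be counted. RNA depth and replicate spread are unknown, and the exact permutation test of 3 against 3 libraries cannot pass 0.05.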
